A study of Mus musculus with 8 samples.

Results

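The 7 genes described here are Hmgcs1, Idi1, Fdft1, Sqle, Lss, Dhcr7 and Insig1, of which 6 encode enzymes of cholesterol synthesis and Insig1 encodes a brake on that synthesis. They were picked out by gene symbol, from a list drawn up with earlier results of these data known, and each was found once among the 40800 gene identifiers of the deposited table. All 7 passed the filter on low values, which kept 15030 genes. None of the 7 encodes a receptor or carrier that takes up cholesterol, so uptake was read from a separate list of genes.

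Gene expression was measured by RNA sequencing of dorsal root ganglia, where the somata of sensory neurons lie with their glia, in 8 mice aged 6 months. The wild-type group was 4 C57BL/6 mice, and the mutant group was 4 mice on that background carrying a gene trap in both copies of Tmem184b, a gene for a transmembrane protein. Such a cassette is spliced into the transcript and truncates it. The labels give no sex, litter, dissection day or library batch, so the p-values measure the spread between these samples. Each sample's column header also carries a number, lower in all mutants than in all wild types, whose meaning is not given. A difference that follows this number cannot be told apart from genotype. Samples are named by genotype and label number, wild types 1, 3, 4 and 8 and mutants 1 to 4.

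Library totals were 6183618 to 7983821 reads. Levels are moderated log2 CPM, the logarithm of each gene's reads plus a few added reads, scaled by library size (CPM), and differences are mutant minus wild type on that scale. The trapped gene was low in every mutant, with Tmem184b between 2.47 and 3.10 log2 CPM there against 7.36 to 7.51 in wild type (difference -4.64, SE 0.113; limma adjusted p = 2.57e-12). The 9 pan-neuronal markers summed to 9601 to 10626 CPM for wild type and 9561 to 10222 CPM for mutant, and 12 markers of myelinating Schwann cells to 2559 to 3360 and 3047 to 3678 CPM, so both cell types were read in all samples. Xist, the transcript of the inactive X chromosome, was at -0.89 log2 CPM in wild type 3 and at -0.14 and 0.37 in mutants 3 and 4. It was between 7.72 and 8.25 in the other samples. Sex as read from Xist is thus not balanced between the genotypes.

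Cells make cholesterol from acetyl-CoA. In the first stretch, the mevalonate arm, acetyl units are joined into 3-hydroxy-3-methylglutaryl-CoA, turned into mevalonate and built up to farnesyl diphosphate. In the second stretch, farnesyl diphosphate is joined into squalene, closed into the first sterol, lanosterol, and trimmed to cholesterol. When membrane sterol is low, the escort protein SCAP carries the transcription factor SREBP to the Golgi for cleavage, and SREBP then switches on most genes of the pathway. INSIG proteins hold SCAP back when sterol is plentiful, and Insig1 is itself an SREBP target. In peripheral nerve, Schwann cells make much of their own cholesterol for myelin, while neurons also take it up from lipoproteins that glia release.

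Sterol control is known to act through short promoter sequences, and 3 promoters are printed as examples: that of Hmgcs1 for its sterol regulatory element, that of Insig1 for its E box and that of Lss because it came nearest to the threshold among the 7. Stretches are from RefSeq on GRCm38.p6, 5′ to 3′ on the gene's strand, up to the RefSeq transcript start or to the first annotated exon base of the gene, whichever came first. Capitals mark the sterol regulatory element TCACNCCAC, the CCAAT box CCAAT, which reads ATTGG on the other strand, and the E box CACGTG.
Hmgcs1 (chr13:119690101-119690350, plus strand): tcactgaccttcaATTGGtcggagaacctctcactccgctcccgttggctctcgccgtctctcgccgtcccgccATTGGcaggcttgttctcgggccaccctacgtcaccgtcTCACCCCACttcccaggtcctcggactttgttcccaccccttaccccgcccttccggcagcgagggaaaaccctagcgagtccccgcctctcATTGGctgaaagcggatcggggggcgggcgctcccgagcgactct
Insig1 (chr5:28071162-28071362, plus strand): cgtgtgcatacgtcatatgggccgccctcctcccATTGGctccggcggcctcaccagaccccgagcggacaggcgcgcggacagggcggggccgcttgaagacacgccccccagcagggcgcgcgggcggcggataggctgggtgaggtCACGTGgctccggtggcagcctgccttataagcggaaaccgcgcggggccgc
Lss (chr10:76531355-76531587, plus strand): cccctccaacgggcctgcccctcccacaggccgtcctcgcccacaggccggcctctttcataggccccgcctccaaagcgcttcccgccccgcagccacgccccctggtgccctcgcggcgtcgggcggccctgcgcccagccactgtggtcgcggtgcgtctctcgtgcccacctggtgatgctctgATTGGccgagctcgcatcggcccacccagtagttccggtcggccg

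RefSeq windows were at hand for 5 of the 7 genes, with 7 windows in all because Dhcr7 has several starts. Both strands of the 250 bases before each start were searched. The sterol regulatory element was found in the Hmgcs1 window alone, starting 137 bases before the start, and in 1.05% of all 32851 windows. The CCAAT box was found for all 5 genes with a window, and in 33.8% of all windows. The GC box GGGCGG was also found for all 5 genes, and in 32.7% of all windows. The E box was found for Insig1 and Dhcr7, and in 6.02% of all windows. The E box and CCAAT boxes of Dhcr7 and the CCAAT and GC boxes of Idi1 lie past the gene's first annotated exon base. Printed stretches stop at that base, while the searched windows did not. The sterol element was in 0 of the 57 windows of the 45 other sterol and lipid genes that had one. A match describes letters in the window, and no match says nothing of binding.

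None of the 7 genes passed the threshold of an adjusted p under 0.05 in the comparison of mutant with wild type (limma; 0 by voom on the recovered reads), against 5.46% of all tested genes called (2.81% higher and 2.64% lower). All 7 had a difference above 0, from 0.0025 for Dhcr7 to 0.45 for Idi1 with a median of 0.14, and 64.4% of all tested genes were above 0 with a median of 0.066. An unadjusted limma p under 0.05 was reached by 4 of the 7, each higher in the mutant, and 0 were lower, against 14.1% and 7.21% of all tested genes. For 5 of the 7 every mutant lay above every wild type (Hmgcs1, Idi1, Fdft1, Lss and Insig1), and for 0 below, against 7.5% and 4.92% of all tested genes. That separation depended on scaling: after each sample was centred on its own median, the groups of all 7 genes overlapped, while 3.15% of all tested genes were still separate with the mutant higher. Sqle and Dhcr7 overlapped between the genotypes on either scale.

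**Figure D1:**
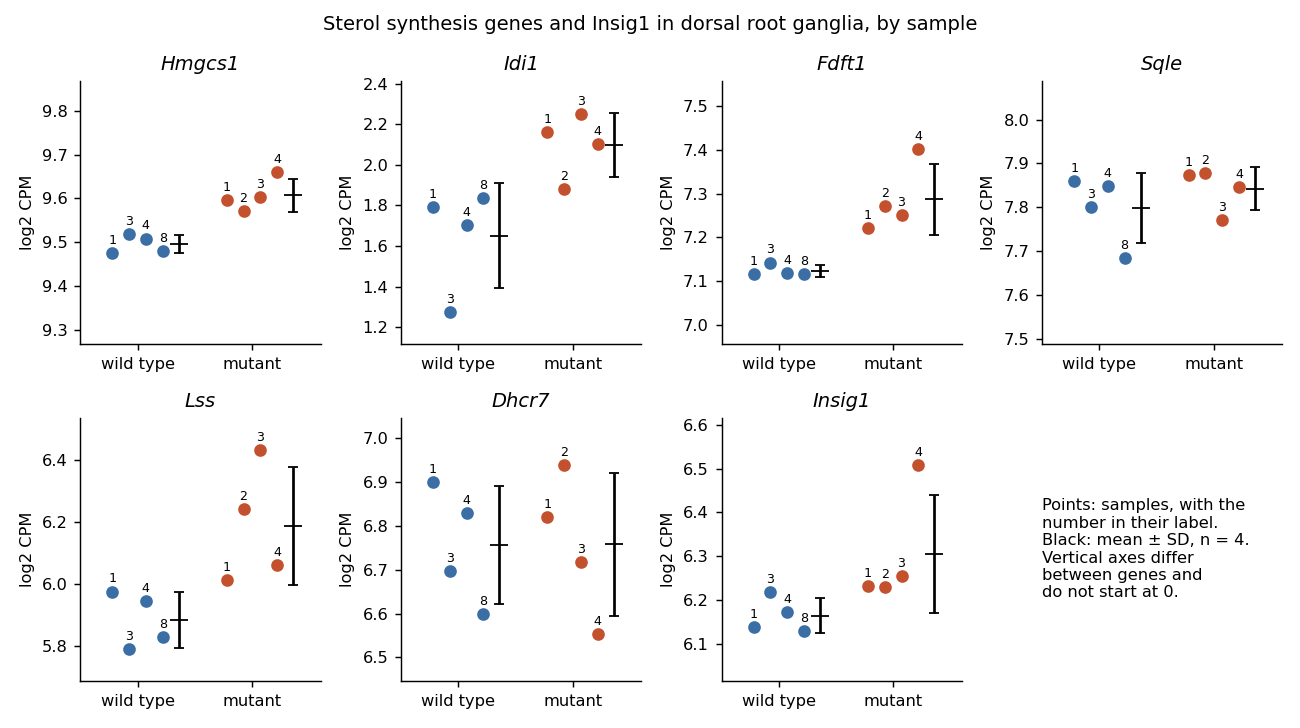
Moderated log2 CPM (vertical axes, a separate scale for each gene) of the 7 genes in each of the 4 wild-type and 4 mutant samples, with the label number beside each point and the group mean ± SD in black. Every mutant lies above every wild type for Hmgcs1, Idi1, Fdft1, Lss and Insig1 before median centring, while Sqle and Dhcr7 overlap.

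In the mevalonate arm, Hmgcs1 makes 3-hydroxy-3-methylglutaryl-CoA from acetyl units. Wild types 1, 3, 4 and 8 measured 9.48, 9.52, 9.51 and 9.48 log2 CPM, and mutants 1 to 4, in that order here and below, measured 9.60, 9.57, 9.60 and 9.66. The groups did not overlap, and mutant 4 was the highest sample. The difference was 0.11 (SE 0.048, 95% interval 0.0098 to 0.21; limma adjusted p = 0.189), from 722 ± 10.4 CPM in wild type to 780 ± 20.7 CPM in the mutant (SD, n = 4). It was 0.019 after median centring, the lowest value under any alternative. Hmgcs1 (ENSMUSG00000093930) lies on chromosome 13 at 119690379 to 119708260, plus strand, in GRCm38.

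Idi1 encodes the isomerase that turns isopentenyl diphosphate into its reactive partner. It was the least abundant of the 7, with 17 to 26 reads per wild type and 21 to 29 per mutant. Wild types measured 1.79, 1.27, 1.70 and 1.84 log2 CPM, against 2.16, 1.88, 2.25 and 2.10 for mutants. Wild type 3 was the lowest sample, and mutant 2 lay just above wild type 8. The difference of 0.45 was the largest of the 7 and the least precise (SE 0.199, 95% interval 0.023 to 0.87; limma adjusted p = 0.209), and without wild type 3 it was 0.32. The pseudogene Gm13502 matches 684 bases of an Idi1 transcript at 100% identity and had 0 to 2 reads per library, so part of the Idi1 count is uncertain. Idi1 (ENSMUSG00000058258) lies on chromosome 13 at 8885501 to 8892451, plus strand.

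In the squalene and sterol arm, Fdft1 encodes squalene synthase, the first enzyme committed to sterols. The wild types lay close together at 7.12, 7.14, 7.12 and 7.12 log2 CPM, and the mutants were at 7.22, 7.27, 7.25 and 7.40. Mutant 4 was again the highest sample, and the groups did not overlap. The difference was 0.16 (SE 0.055, 95% interval 0.045 to 0.28; limma adjusted p = 0.103), from 139 ± 1.24 CPM to 156 ± 8.85 CPM (SD, n = 4). It was 0.12 without mutant 4 and 0.071 after median centring. Fdft1 (ENSMUSG00000021273; chromosome 14, 63145150 to 63179578, minus strand) shares 774 exon bases in GENCODE with Ctsb, which is transcribed from the opposite strand. Whether counting used strand is not given in the sources used here. Ctsb had 7898 to 11197 reads per library and a difference of -0.11 (limma adjusted p = 0.273). The pseudogene Gm6781, with 3 to 12 reads, matches 1249 bases of Fdft1 at 97.4% identity.

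Sqle encodes squalene epoxidase, which adds the oxygen needed for ring closure. Wild types measured 7.86, 7.80, 7.85 and 7.68 log2 CPM, against 7.87, 7.88, 7.77 and 7.85 for mutants. The ranges overlapped, with wild type 8 the lowest sample and mutant 3 below 3 of the wild types. The difference was 0.044 (SE 0.056; limma adjusted p = 0.699), with a 95% interval of -0.075 to 0.16, and it was -0.048 after median centring. Sqle (ENSMUSG00000022351) lies on chromosome 15 at 59315077 to 59331192, plus strand.

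Lss encodes lanosterol synthase, which closes the sterol rings, and came nearest to the threshold. Wild types measured 5.98, 5.79, 5.95 and 5.83 log2 CPM, against 6.02, 6.24, 6.43 and 6.06 for mutants. The groups did not overlap, but mutants 1 and 4 were close to wild types 1 and 4, and mutant 3 was the highest. The difference was 0.30 (SE 0.089, 95% interval 0.11 to 0.49; limma adjusted p = 0.0617), from 58.9 ± 3.66 CPM to 73.2 ± 9.96 CPM (SD, n = 4). It passed the threshold under the robust variance trend (adjusted p = 0.0475) and without mutant 1 (0.36; adjusted p = 0.0498), and in no other of the 20 alternatives, whose highest adjusted p was 0.414. Without mutant 3 the difference was 0.22 (adjusted p = 0.126). Lss (ENSMUSG00000033105) lies on chromosome 10 at 76531588 to 76557138, plus strand.

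Dhcr7 encodes 7-dehydrocholesterol reductase, which makes cholesterol in the last step of one branch. Wild types measured 6.90, 6.70, 6.83 and 6.60 log2 CPM, against 6.82, 6.94, 6.72 and 6.55 for mutants. The ranges overlapped almost fully, with the highest and the lowest sample both mutants. The difference was 0.0025 (SE 0.085, 95% interval -0.18 to 0.18; limma adjusted p = 0.991), and its direction changed in 8 of the 20 alternatives. The interval leaves room for a change of up to 1.14-fold in the upward direction and down to 0.883-fold. Dhcr7 (ENSMUSG00000058454; chromosome 7, 143823145 to 143848410, plus strand) shares stretches of 100 to 227 bases with 25 other annotated genes at 95% identity or more.

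Insig1 encodes the endoplasmic reticulum protein that retains SCAP and is a common readout of SREBP activity. Wild types measured 6.14, 6.22, 6.17 and 6.13 log2 CPM, against 6.23, 6.23, 6.25 and 6.51 for mutants. The groups did not overlap, yet mutants 1 and 2 lay barely above wild type 3, and mutant 4 stood apart. The difference was 0.14 (SE 0.071, 95% interval -0.012 to 0.29; limma adjusted p = 0.277), and without mutant 4 it was 0.074 (adjusted p = 0.592). After median centring it was 0.048 (adjusted p = 0.774), the lowest value under any alternative. Insig1 (ENSMUSG00000045294) lies on chromosome 5 at 28071363 to 28078662, plus strand.

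Set per kilobase of the longest coding transcript in GENCODE M21, wild-type levels of the 7 genes ran from 208 ± 2.99 CPM per kilobase for Hmgcs1 to 0.954 ± 0.173 for Idi1 (SD, n = 4). Sqle followed Hmgcs1 at 80.7 ± 4.41. Dhcr7 at 38.4 ± 3.56 and Fdft1 at 37.6 ± 0.337 did not differ beyond their spread. Insig1 was at 26.5 ± 0.745 and Lss at 12.6 ± 0.785. The order of the mutant means differed only in that Fdft1, at 42.2 ± 2.39, stood above Dhcr7, at 38.5 ± 4.32, within their spread.

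The 15 other enzymes of cholesterol synthesis were read in the same fit. Of these, 5 were called, all higher in the mutant: Mvd, Tm7sf2, Hsd17b7, Ebp and Nsdhl, against 2.81% of all tested genes. The median difference of the 15 was 0.21, and none of the 15 was called lower. An unadjusted limma p under 0.05 was reached by 9 that were higher and 0 that were lower, against 14.1% and 7.21% of all tested genes. By voom 5 were called. All 21 enzymes, members included, had a difference above 0 as deposited, 20 under quantile normalization and 18 after median centring. Of all tested genes 64.4%, 50.7% and 44.7% were above 0 in the same order. The list was written from pathway knowledge with earlier results of these data known.

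Mvd, which makes isopentenyl diphosphate just before the step of Idi1, rose by 0.40 (SE 0.078; limma adjusted p = 0.00987), with wild types at 5.39, 5.71, 5.70 and 5.56 log2 CPM and mutants at 6.03, 5.99, 6.02 and 5.92. Tm7sf2, a sterol reductase acting after lanosterol, rose by 0.37 (SE 0.064; limma adjusted p = 0.00465), with wild types between 5.74 and 5.81 log2 CPM and mutants between 6.05 and 6.23. It shares 532 exon bases with Vps51 on the same strand, so its count is uncertain. After median centring Mvd and Tm7sf2 were the only ones of the 5 still called, against 204 of all 15030 tested genes called higher. Under quantile normalization 3 of the 21 enzymes were called higher, against 271 of all tested genes. The groups of Mvd, Tm7sf2, Hsd17b7 and Ebp still did not overlap after centring, while 3.15% of all tested genes were separate with the mutant higher.

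Hsd17b7, a reductase in the removal of the sterol's methyl groups, rose by 0.31 (SE 0.064; limma adjusted p = 0.0134). Ebp, the isomerase that moves the ring double bond, rose by 0.29 (SE 0.075; limma adjusted p = 0.0379), and Nsdhl, a dehydrogenase of the same demethylation steps, by 0.27 (SE 0.073; limma adjusted p = 0.0465). After median centring none of these 3 was called (limma adjusted p = 0.0875, 0.164 and 0.195). Ebp and Nsdhl lie on the X chromosome. With Xist as a covariate they were at 0.28 (adjusted p = 0.0552) and 0.26 (adjusted p = 0.0666). Each was called in 7 of the 20 alternatives, Hsd17b7 in 15, Mvd in 17 and Tm7sf2 in 19.

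Cyp51, which acts on the product of Lss, was not called, with a difference of 0.16 (SE 0.073; limma adjusted p = 0.235). That the 5 called enzymes differ from the 7 members in response was not tested.

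**Figure D2:**
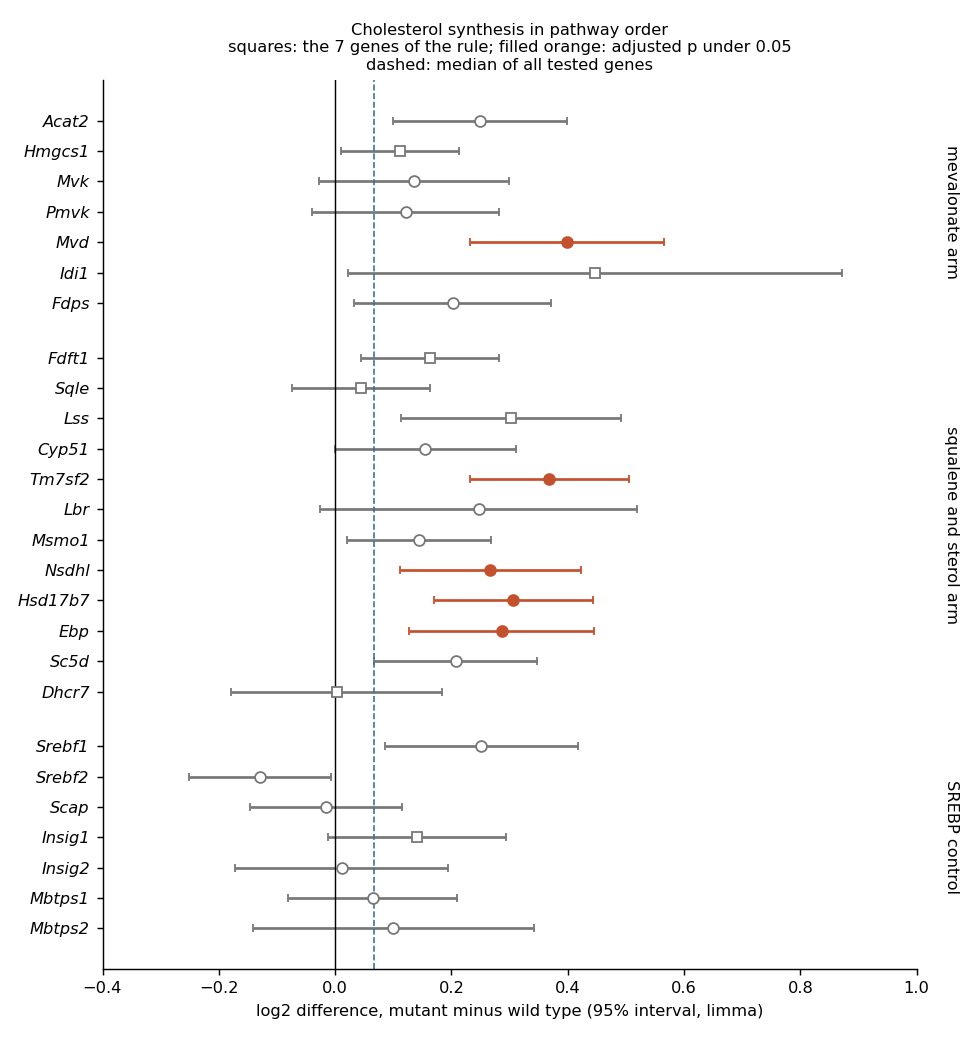
Log2 difference, mutant minus wild type (horizontal axis), with its 95% limma interval for the plotted genes of the mevalonate arm, the squalene and sterol arm and SREBP control in pathway order. Squares are the 7 genes of the rule and filled orange points the 5 called enzymes; the dashed line is the median of all tested genes, 0.066.

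The controllers of the pathway showed no call among 7 tested (limma; 1 with an unadjusted p under 0.05 in each direction; voom called 0), with a median of 0.065 that was close to the 0.066 of all genes. Over all tested genes 5.46% were called, and at the unadjusted level 14.1% were higher and 7.21% lower. The counts for so few genes are near those shares. Srebf2, which encodes the SREBP that chiefly drives cholesterol genes, stood at 8.60, 8.53, 8.54 and 8.46 log2 CPM for wild types against 8.42, 8.48, 8.44 and 8.27 for mutants. The difference was -0.13 (SE 0.057; limma adjusted p = 0.207), and the ranges overlapped only through mutant 2 and wild type 8. Srebf1, whose main product drives fatty acid genes, differed by 0.25 (SE 0.077; limma adjusted p = 0.0737), and passed without wild type 4 (0.33; adjusted p = 0.0108). Scap differed by -0.016 (limma adjusted p = 0.915) and Insig2 by 0.011 (limma adjusted p = 0.960), with the direction changed in 2 and 5 of the 20 alternatives.

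Against 5.46% of all tested genes, 1 of 12 genes of lipoprotein uptake and sterol transport was called, Stard4, a cytosolic sterol carrier. It rose by 0.25 (SE 0.065; limma adjusted p = 0.0382), from 6.62, 6.63, 6.69 and 6.42 to 6.81, 6.89, 6.86 and 6.80 log2 CPM. Stard4 was called in 7 of the 20 alternatives. Npc1, which moves cholesterol out of the lysosome, differed by 0.10 (SE 0.069; limma adjusted p = 0.428). The list's median was 0.11, and 9 of 12 genes were above 0, against 64.4% of all tested genes.

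Against 5.46% of all tested genes, 1 of 10 genes of efflux, storage and oxysterol sensing was called, Nr1h3, the oxysterol receptor LXR alpha. Wild type libraries held 20 to 24 of its reads and mutant libraries 29 to 53. It rose by 0.76 (SE 0.195; limma adjusted p = 0.0355), and without mutant 4 the difference was 0.60 (adjusted p = 0.118). Nr1h3 was called in 7 of the 20 alternatives. Abca1, a cholesterol exporter and LXR target, differed by -0.13 (SE 0.063; limma adjusted p = 0.266). Apoe, the main glial apolipoprotein, differed by 0.25 (SE 0.095; limma adjusted p = 0.147), and passed without mutant 3 (0.33; adjusted p = 0.0399). The median of the list was 0.049.

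Of 9 fatty acid genes under related control 2 were called, both higher, against 2.81% of all tested genes called higher. Acss2, which makes acetyl-CoA from acetate, rose by 0.33 (SE 0.068; limma adjusted p = 0.0113), and the desaturase Fads2 rose by 0.28 (SE 0.072; limma adjusted p = 0.0344). They were called in 15 and 9 of the 20 alternatives. Acss2 overlaps exons of Ggt7 and Gss on the other strand. Of 8 genes on the non-sterol branches that use the isoprenoid diphosphates none was called (limma; 1 higher at an unadjusted p under 0.05; voom called 0), with a median of 0.14. The shares over all tested genes were 5.46% called and 14.1% higher at the unadjusted level.

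**Figure D3:**
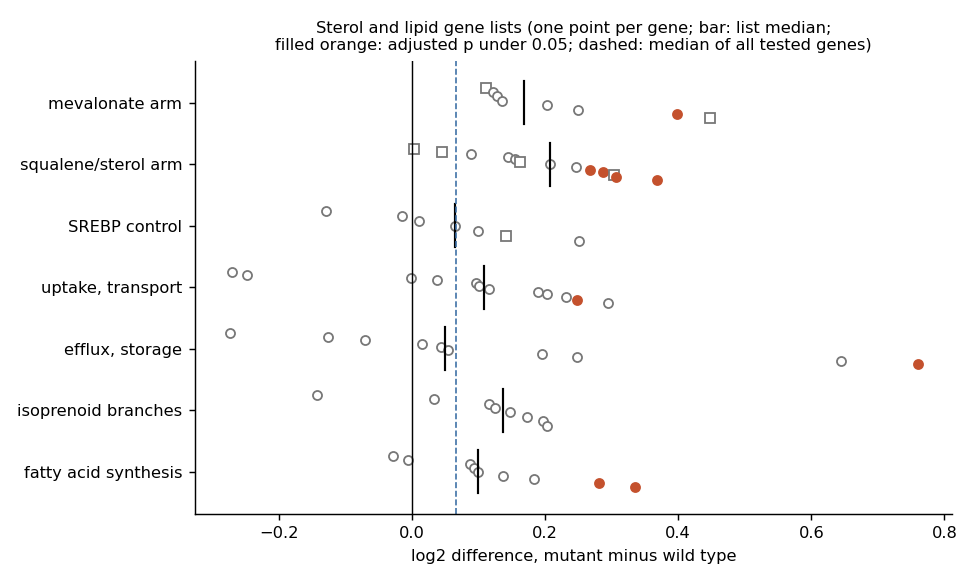
Log2 difference, mutant minus wild type (horizontal axis), of each gene in 7 sterol and lipid lists, with the list median as a black bar, the 7 genes of the rule as squares and called genes filled in orange. The medians run from 0.049 for efflux and storage to 0.21 for the squalene and sterol arm; the dashed line is the median of all tested genes, 0.066.

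The 7 genes did not rank the samples alike. Mutant 4 was the highest sample for Hmgcs1, Fdft1 and Insig1 and the lowest for Dhcr7, and mutant 3 was the highest for Idi1 and Lss. The lowest sample was wild type 3 for Idi1 and Lss, wild type 8 for Sqle and Insig1 and wild type 1 for Hmgcs1 and Fdft1. After each group's mean was subtracted, each gene was set against the mean of all 7, itself included. Pearson r over 8 samples was 0.65 for Lss, 0.61 for Idi1, 0.34 for Dhcr7 and 0.31 for Sqle. It was -0.010 for Fdft1, -0.039 for Insig1 and -0.088 for Hmgcs1. Genes that vary more weigh more in this mean, so the order does not measure shared control. The wild-type SD was 0.26 log2 CPM for Idi1 and 0.021 for Hmgcs1. Among 10057 other genes the closest to the mean of the 7 were Rnf2 (r = 0.98), Sema4a (0.98), Lats2 (0.97), Vps37c (0.97) and Snx8 (0.96), all uncalled. These r values are the extremes of many genes over 8 samples and are a description only.

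Markers of the ganglion's cell types were read beside these results, since in bulk tissue a change in the number of cells and a change in RNA per cell cannot be told apart. Of all tested genes 2.81% were called higher, 2.64% were called lower and 64.4% were above 0. At an unadjusted limma p under 0.05, 14.1% of them were higher and 7.21% lower. Of 12 myelinating Schwann cell markers 2 were called higher (Ncmap and Drp2) and 11 were above 0, with a median of 0.34 and overlapping sums. Of 8 satellite glia markers 2 were called higher, among them Glul, all were above 0, and the sums were 2352 to 2908 CPM for wild type and 2643 to 3617 CPM for mutant. Apoe is in this list too. Of 9 pan-neuronal markers 2 were called lower (Syt1 and Avil), with a median of -0.065. At the unadjusted level 7 of the 12 Schwann cell and 4 of the 8 satellite glia markers were higher, and 0 were lower. Of the pan-neuronal markers 1 was higher and 3 were lower at that level. The summed level of the 7 genes of the rule was 1284 to 1347 CPM for wild type and 1413 to 1462 CPM for mutant. Hmgcs1 makes up most of this sum, at 722 ± 10.4 CPM in wild type (SD, n = 4), and after median centring 0 of the 7 genes had separate groups. The part of these cell types in the sterol values was not tested.

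Among other cells, 1 of 7 tested macrophage markers (Cd163) and 1 of 6 fibroblast markers (Dcn) were called higher. The share over all tested genes was 2.81%. Macrophage sums were 51.6 to 81.3 CPM for wild type and 70.5 to 108 CPM for mutant, and fibroblast sums 611 to 1222 and 794 to 1177 CPM. No marker in any list was at 0 reads in all 8 samples. Endothelial, red blood cell, adipocyte and skeletal muscle markers gave no call (limma; voom 0 each). At an unadjusted limma p under 0.05, 5 of 7 tested macrophage, 3 of 6 fibroblast, 2 of 6 endothelial and 5 of 5 tested muscle markers were higher. So were 0 of 5 red blood cell and 0 of 2 tested adipocyte markers. The share of all tested genes that were higher at that level was 14.1%. Endothelial sums were 49.5 to 75.6 CPM for wild type and 53.3 to 84.3 CPM for mutant, red blood cell sums 39.9 to 108 and 65.0 to 124 CPM, and muscle sums 3.49 to 34.8 and 11.1 to 162 CPM. Adipocyte markers, from a cell type rich in lipid synthesis, summed to at most 5.33 CPM for wild type and 12.2 CPM for mutant.

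**Figure D4:**
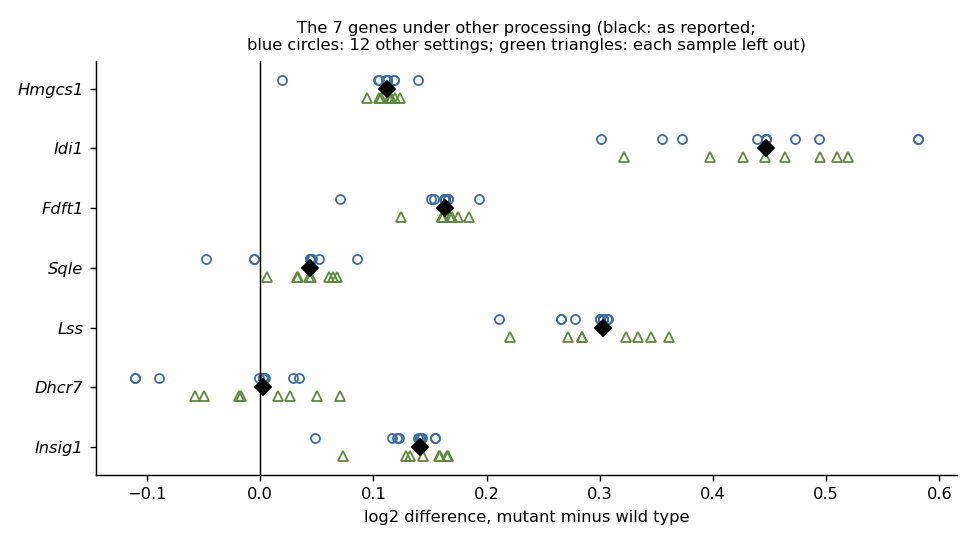
Log2 difference, mutant minus wild type (horizontal axis), of each of the 7 genes as reported (black), under 12 other settings (blue circles) and with each of the 8 samples left out (green triangles). Hmgcs1, Idi1, Fdft1, Lss and Insig1 stay above 0 throughout, while Sqle and Dhcr7 fall on either side of 0.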

How the data were processed

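RNA from dorsal root ganglia of 4 wild-type and 4 mutant mice was sequenced as single-end Illumina libraries, per the labels' protocols. Salmon 0.11.1, DESeq2 and the build mm9 are named in the submitters' processing notes, with no role or order. What the authors deposited is a single table of 41422 lines in moderated log2 CPM. Repeated lines (402 identifiers) were identical in value and each identifier was kept once. In every library 100.0% of values were whole multiples of 1 read (tolerance 0.01 read) once the floor of -1.79 was subtracted on the linear scale, which gave back reads, library totals and a prior count averaging 2.00 reads.

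Genes above 0 log2 CPM in at least 4 samples were compared with limma 3.58.1 in R 4.3.3 (lmFit, eBayes with a mean-variance trend, no covariate, two-sided, Benjamini-Hochberg over all tested genes). The code was tested on simulated reads. Exact two-sided permutation over samples gave p = 0.0286, the smallest possible, for each of the 5 separated members. Any gene whose groups do not overlap gets this value, so it only restates the separation. On the deposited scale 7.5% of all tested genes were separate with the mutant higher and 4.92% with it lower. The 7 genes and all lists were chosen with earlier results of these data known. Named are the members, Tmem184b, called pathway genes, 8 of the fixed pathway genes (some named items are not reported here), Xist, called markers and the 5 genes most like the members' mean (at least 3 log2 CPM). The numbers 1, 3 and 4, shared by both genotypes, were not taken as pairs in the main fit. Gene positions and transcript lengths are from GENCODE M21 (GRCm38), which is not the authors' build and held 40254 of the 40800 identifiers. Similar transcripts were found with blastn 2.17.0 (at least 95% identity over 100 bases). Alternatives covered filters, pseudocount, scaling, variance model, sample weights, an Xist covariate, a replicate block, voom and leaving out each sample.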

Additional observations from a re-analysis of the deposited data

Results flagged for a closer look

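A gap between 1 sample and the rest of its genotype passed Dixon's 95% limit in 5 of 50 gene and genotype groups, and about 1 in 20, or 2.5, would pass by chance. Mutant 4 stood apart in Insig1, at 6.51 log2 CPM against 6.23 to 6.25 in the other mutants. It stood apart also in Nr1h3, at 2.98 against 2.30 to 2.34, and in Ebp, at 5.18 against 5.07 to 5.09. Mutant 1 was the low sample for Hsd17b7, at 6.22 against 6.39 to 6.42. Wild type 3 stood apart in Fdft1, at 7.14 against 7.12 in the others, a gap that is narrow because the other wild types nearly coincide. The cause of these was not tested.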

How the results depend on the processing

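Of the 7 genes, none was called under 18 of the 20 alternatives, and 1, Lss, under the robust variance trend and without mutant 1, so that leaving out single samples gave 0 to 1. The 9 other pathway genes called higher became 1 with no filter, 3 under median centring, 1 without the variance trend and 5 with the Xist covariate, and 4 to 11 with 1 sample left out (4 without wild types 1 or 8 or mutants 1 or 4, and 5 without wild type 3 or mutant 2). Over all genes, 423 higher and 397 lower became 14 and 24 with no filter, 204 and 706 under median centring and 67 and 75 without the variance trend, and 271 were higher under quantile normalization. The share of calls that are higher thus went from 51.6% to 22.4% under centring. With 1 sample left out, 174 to 572 were higher and 230 to 427 lower. The cause was not tested.

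Whether the label numbers pair samples was not tested, since differently numbered samples were not compared. Same-numbered samples correlated in their deviations at 0.081, 0.041 and 0.058. A replicate block on these 6 samples called 326 genes higher, 345 lower and 2 other pathway genes. Dropping the block but keeping the 6 samples called 180, 267 and 1.

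Among the genes named, directions changed for uncalled genes alone. Median centring gave -0.048 for Sqle, -0.090 for Dhcr7 and -0.081 for Insig2. Quantile normalization gave -0.00082 for Dhcr7 and -0.063 for Insig2. The 6 samples with and without the block gave -0.0058 for Sqle, -0.11 for Dhcr7 and -0.0070 for Insig2. With 1 sample left out, Dhcr7 ranged from -0.058 to 0.071, Scap from -0.042 to 0.024 and Insig2 from -0.017 to 0.034. Idi1, at 17 to 29 reads per library, is limited by depth.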
